A study of Mus musculus with 6 samples.

Results

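Autophagy is the route by which a cell wraps cytoplasm, damaged organelles and glycogen in a double membrane, the autophagosome, and delivers them to the lysosome for breakdown. In skeletal muscle it clears worn mitochondria between meals and contractions, and both too little and too much of it are known to waste fibres. 10 genes that cover its successive steps were taken by symbol from the 14617 genes of the deposited table, and all 10 were listed there. They were the start kinase Ulk1, the lipid kinase subunit Becn1, the phosphoinositide reader Wipi1, the conjugation enzyme Atg7, the ATG8 proteins Map1lc3a, Map1lc3b and Gabarapl1, the cargo receptor Sqstm1, the lysosomal membrane protein Lamp1 and the transcription factor Tfeb. The rule names them by symbol and sets no threshold on a measured value.

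The RNA came from the tibialis anterior, a fast muscle of the lower leg, of mice without Prmt7 (PRMT7-/-, called KO) and of wild-type mice (PRMT7+/+, called WT), C57BL/6 in both groups and 8 months old. Prmt7 encodes an arginine methyltransferase; the labels call the mice null without describing the allele. The labels name 3 mice per genotype, whereas each deposited mean resolved, gene by gene, into whole counts of just 2 libraries. These are called KO library 1 and 2 and WT library 1 and 2, and they cannot be tied to mouse numbers.

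No column header names a genotype. Which column is KO and which is WT was taken from how the table's name orders the genotypes, and every direction given here rests on that reading. The Prmt7 transcript had 706 and 718 normalized counts in the KO libraries and 885 and 844 in the WT libraries, with an FDR of 0.587 in the authors' deposited table, which does not settle the order. The libraries held 24814798 and 22849273 counts over listed genes in KO and 23695468 and 22629288 in WT. Xist, transcribed from the inactive X chromosome of female cells, had 1.82 and 1.03 normalized counts in the KO libraries and 10800 and 11546 in the WT libraries, so sex and genotype cannot be told apart in any comparison here. The 4 Y-linked genes measured were at 0 in KO library 1 and in both WT libraries and were detected in KO library 2, so KO library 1 stands apart in lacking both kinds of transcript; Map1lc3a is given below without each KO library. None of the 10 genes lies on a sex chromosome. All 6 muscle fibre markers were detected in each library, and their summed counts in the KO libraries were 1.20 and 1.36 times the WT mean. Of the 6, 3 lay wholly over WT (Myh4, Pvalb and Actn3), with Myh4 past the authors' FDR. The genotypes overlapped in Acta1, Ckm and Tnnt3. In whole muscle, fewer cells of a type and less RNA per cell cannot be told apart.

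Of the 10 genes, Map1lc3a alone passed the authors' FDR of 0.05, lower in KO, and 9 did not pass. The background in the authors' deposited table was 2.71% of all genes in either direction, 1.7% lower in KO and 1.01% higher in KO. 9 of the 10 log2 ratios lay below 0, and 7 of 10 when libraries were scaled by totals without the 20 most abundant genes. That scaling moved the median of the genes with a mean of at least 10 to 0.11, and 9 of the 10 lay below that median. The deposited ratios ran from -0.60 for Map1lc3a to 0.12 for Becn1, with a median of -0.19 beside a median of 0.01 over all listed genes. The KO values were both under the WT values in 7 genes and both over them in Becn1, and in Sqstm1 and Ulk1 the genotypes overlapped; the 8 genes without overlap were 6 with total counts or the upper quartile and 5 with totals without the 20 most abundant genes. With the deposited scaling, over the 14053 genes with a mean of at least 10, KO was wholly under WT in 26.2% and wholly over it in 25.6%. Among the 6595 with a mean of at least 500, a level 9 of the 10 reached, it was under in 35.4%. These shares were not computed with the other scalings.

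**Figure D1:**
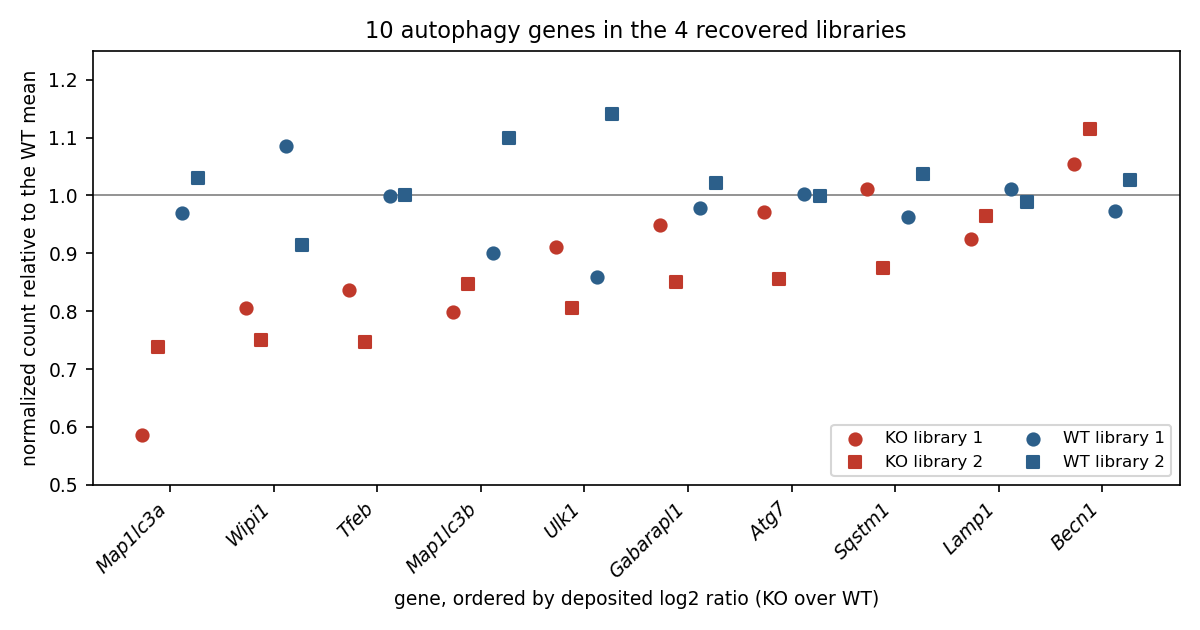
Normalized count of each of the 10 genes in each library, divided by the gene's WT mean (vertical axis, no unit), with KO libraries in red left of WT libraries in blue, and genes ordered along the horizontal axis by the deposited log2 ratio. Map1lc3a stands lowest, with its KO points under its WT points, and Becn1 is the gene whose KO libraries both lie above both WT libraries.

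The ATG8 proteins are small ubiquitin-like proteins that are attached to the lipids of the growing membrane, where they recruit cargo receptors. Map1lc3a encodes LC3A and Map1lc3b encodes LC3B, the form most often followed as a marker of autophagosomes. Because reads of near-identical genes can be split between them, the coding sequences of the pair were compared. They had 366 and 378 bases and were identical at 280 of 366 aligned bases (76.5%). The longest run of bases shared by the whole transcripts was 15, and it is shown here in capitals within coding bases 225 to 299 of each, counted from the start codon, as given by GENCODE vM21 on GRCm38:
Map1lc3a: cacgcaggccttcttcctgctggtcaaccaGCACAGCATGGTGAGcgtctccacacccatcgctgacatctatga
Map1lc3b: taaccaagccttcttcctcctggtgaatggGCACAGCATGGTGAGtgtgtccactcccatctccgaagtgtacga
How the authors' counting treated reads shared by related genes is not stated.

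In mm10, the build of all coordinates here unless another is named, Map1lc3a lies at 155276364 to 155278073 of chromosome 2. It had 4055 and 5104 normalized counts in the KO libraries, against 6708 and 7135 in the WT libraries. The genotypes did not overlap, and the KO libraries differed more from each other than the WT libraries did, by 0.33 and 0.09 on the log2 scale. The KO mean was lower by 33.8%; the authors' deposited table gave it a log2 ratio of -0.60, an FDR of 0.00275 and rank 124 by FDR. Refitted on the recovered libraries with limma, the log2 difference was -0.60 ± 0.14 (SE; 95% interval -0.94 to -0.27), with a Benjamini-Hochberg adjusted p of 0.0914 that missed the threshold of 0.05. With KO library 2 left out, limma's log2 difference was -0.77, and with KO library 1 left out it was -0.44.

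Map1lc3b (chromosome 8, 121590468 to 121598047) had 4496 and 4773 normalized counts in the KO libraries, against 5072 and 6193 in the WT libraries. The gap within WT, 0.29 on the log2 scale, was as wide as the log2 ratio of -0.28, and the FDR was 0.564 in the authors' deposited table. Gabarapl1 (chromosome 6, 129533192 to 129542331), of the GABARAP branch that acts in sealing and fusion, had 1298 and 1163 in KO, against 1339 and 1398 in WT (log2 ratio -0.15, FDR 0.88 in the authors' deposited table). An antisense transcript, 1700101I11Rik, covers 377 of the 1820 exon bases of Gabarapl1 in GENCODE, and since the strand setting is not given its reads may be counted in.

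The other ATG8 genes measured, Gabarap and Gabarapl2, had KO and WT libraries that overlapped. Gabarap had 3727 and 4092 normalized counts in KO and 4066 and 3986 in WT. Gabarapl2 had 2107 and 2637 in KO and 2704 and 2484 in WT. Ratios within a library do not depend on the scaling between libraries. Map1lc3a made up 25.9% and 28.7% of the normalized counts of the 5 genes in the KO libraries and 33.7% in each WT library. The ratio of Map1lc3a to Map1lc3b counts was 0.90 and 1.07 in KO and 1.32 and 1.15 in WT. With 2 against 2 libraries the lowest p an exact permutation test can give is 0.333, so these ratios were not tested.

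**Figure D2:**
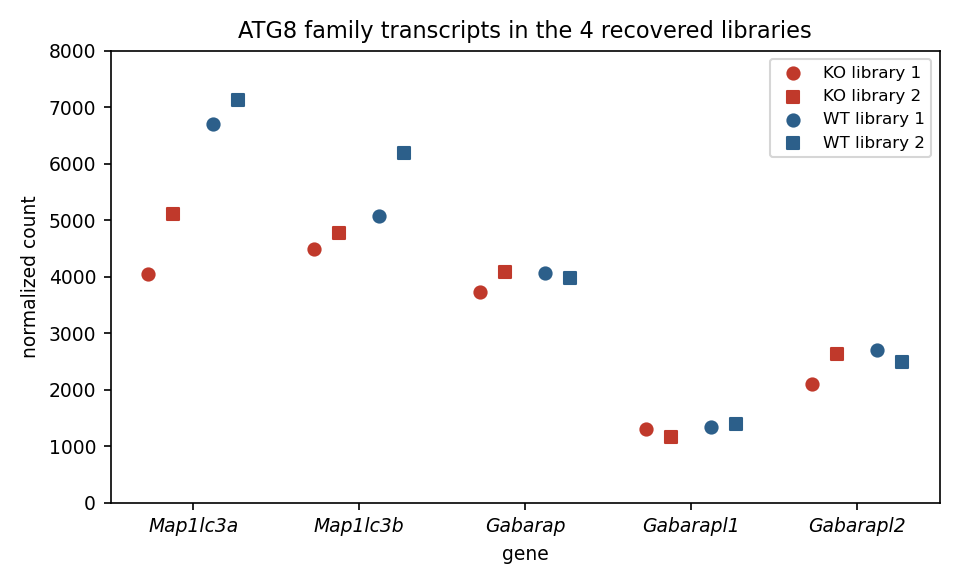
Normalized counts (vertical axis, from 0) of the 5 ATG8 family genes in each library, KO in red left of WT in blue. Map1lc3a had 4055 and 5104 in KO and 6708 and 7135 in WT, while the Gabarap and Gabarapl2 points of the genotypes overlap.

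Ulk1, the kinase that starts autophagosome formation when nutrients or energy are short, had 1979 and 1752 normalized counts in the KO libraries, against 1869 and 2480 in the WT libraries (chromosome 5, 110784489 to 110810081). KO library 1 lay above WT library 1, and the gap within WT, 0.41 on the log2 scale, was wider than the log2 ratio of -0.22 (FDR 0.888 in the authors' deposited table). Limma's log2 difference for Ulk1 was -0.21, and it was -0.41 without WT library 1 and -0.0052 without WT library 2. Becn1, the scaffold of the lipid kinase complex that marks the site of the new membrane, was the gene with a ratio above 0. It had 1652 and 1746 in KO, against 1525 and 1608 in WT (chromosome 11, 101288267 to 101302267; log2 ratio 0.12, FDR 0.928 in the authors' deposited table). Limma's 95% interval for Becn1 was -0.11 to 0.34. Exons of Cntd1 on the opposite strand cover 343 of the 1493 exon bases of the Becn1 transcript closest to the deposited locus, so its reads could not be separated here.

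Wipi1, which binds phosphatidylinositol 3-phosphate on the forming membrane, had 1693 and 1575 normalized counts in the KO libraries, against 2280 and 1922 in the WT libraries (chromosome 11, 109573521 to 109611389). Neither KO value reached a WT value, and the log2 ratio of -0.36 had an FDR of 0.25 in the authors' deposited table. Limma's interval of -0.63 to -0.09 for Wipi1 lay below 0, with an adjusted p of 0.165. Atg7, the enzyme that activates ATG8 proteins and ATG12 for conjugation, had the fewest counts of the 10, at 295 and 260 in KO against 304 and 303 in WT (chromosome 6, 114643097 to 114860614). Its log2 ratio was -0.13 with an FDR of 0.96 in the authors' deposited table, and the gap within KO, 0.18 on the log2 scale, was wider than that ratio.

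Sqstm1, or p62, carries ubiquitin-tagged cargo to ATG8 proteins and is itself degraded with it. It had 9374 and 8110 normalized counts in the KO libraries, against 8930 and 9615 in the WT libraries (chromosome 11, 50200152 to 50210820; log2 ratio -0.09, FDR 0.965 in the authors' deposited table). The genotypes overlapped, with KO library 1 between the WT libraries. Lamp1, a heavily glycosylated protein that lines the lysosomal membrane, had 11196 and 11684 in KO, against 12245 and 11984 in WT (chromosome 8, 13159135 to 13175338; log2 ratio -0.08, FDR 0.953 in the authors' deposited table). Limma's 95% intervals were -0.41 to 0.24 for Sqstm1 and -0.39 to 0.23 for Lamp1, and both held 0. Exons on the opposite strand, of Grtp1 and Zcchc14, cover 11.2% of the exon bases of Lamp1 and 2.29% of those of Map1lc3b. Lamp1 and Map1lc3b share chromosome 8 with Prmt7, at 93.0 and 15.3 Mb from it.

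Tfeb, a transcription factor that enters the nucleus when mTORC1 is inactive and switches on lysosomal and autophagy genes, had 1300 and 1161 normalized counts in the KO libraries, against 1554 and 1558 in the WT libraries (chromosome 17, 47737037 to 47792416). Each KO value was under the WT values, which were within 0.004 of each other on the log2 scale. For Tfeb the authors' deposited table gave a log2 ratio of -0.34 and an FDR of 0.37. Limma gave -0.34 ± 0.10 (SE; 95% interval -0.58 to -0.10) and an adjusted p of 0.138. None of the 10 genes passed limma's adjusted threshold, against 0.889% of all 14053 genes tested (0.463% lower in KO), and 3 (Map1lc3a, Tfeb and Wipi1) had an unadjusted limma p under 0.05, against 19.6% of all genes tested.

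**Figure D3:**
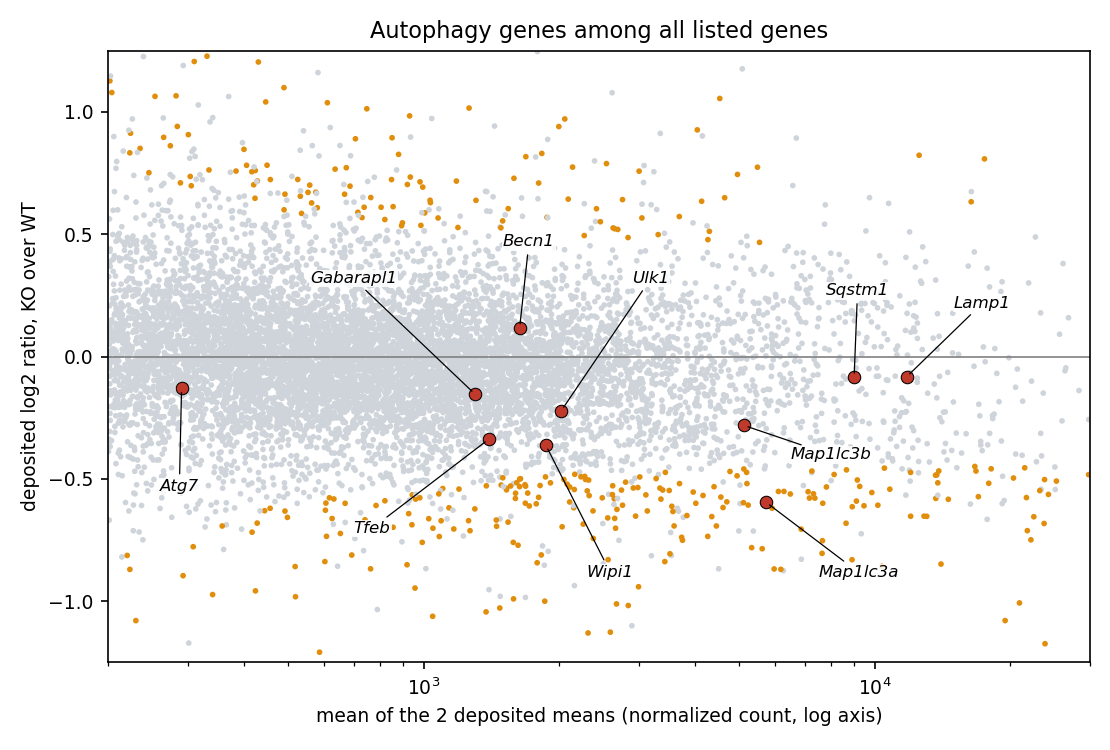
Deposited log2 ratio of KO over WT (vertical axis) against the mean of both deposited means (horizontal log axis, normalized counts) for the 9453 genes within the plotted range, with genes past the authors' FDR of 0.05 in orange and the 10 autophagy genes in red. Map1lc3a lies in the orange band below 0, and the other 9 lie in the grey cloud between -0.36 and 0.12.

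Per kilobase of exon, taken from the GENCODE transcript closest to each deposited locus, the levels over all 4 libraries were in the order Lamp1, Map1lc3a, Sqstm1, Map1lc3b, Becn1, Wipi1, Gabarapl1, Tfeb, Ulk1 and Atg7. Lamp1 had 5132 normalized counts per kb in the mean of the KO libraries and 5435 in WT. Map1lc3a had 4118 in KO and 6225 in WT, so that it stood behind Lamp1 and Sqstm1 in KO and ahead of all the others in WT. Atg7 had 73.8 in KO and 80.7 in WT, and over all libraries Ulk1, its neighbour in the order, was 5.02-fold higher. Adjacent genes overlapped in range over the libraries from Lamp1 to Sqstm1 and again from Becn1 to Tfeb. Map1lc3b stood apart from its neighbours in the order, and so did Ulk1 and Atg7.

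TFEB binds a sequence known as CLEAR, whose centre is an E-box. Promoters were searched for the core TCACGTG on both strands, and for the plain E-box CACGTG that it contains, in the 250 bases before the start of each gene in RefSeq (GRCm38.p6). 8 of the 10 genes had an entry, and 2 of them, Lamp1 and Atg7, held the core. Over all 27025 genes with an entry the share with the core was 3.58%, and the share with the plain E-box was 6.86%. The promoters of the matching genes follow, with that of Ctsf, a lysosomal protease lower in KO, for comparison; capitals mark each core, or in Ctsf the E-box without the flanking base.
Lamp1 (chr8:13158911-13159160, plus strand): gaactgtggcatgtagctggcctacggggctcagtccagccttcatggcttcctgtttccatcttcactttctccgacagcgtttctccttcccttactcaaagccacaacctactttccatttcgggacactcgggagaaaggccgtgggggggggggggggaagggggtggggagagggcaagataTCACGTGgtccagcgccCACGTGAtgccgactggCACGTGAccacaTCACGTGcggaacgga
Atg7 (chr6:114670846-114671095, plus strand): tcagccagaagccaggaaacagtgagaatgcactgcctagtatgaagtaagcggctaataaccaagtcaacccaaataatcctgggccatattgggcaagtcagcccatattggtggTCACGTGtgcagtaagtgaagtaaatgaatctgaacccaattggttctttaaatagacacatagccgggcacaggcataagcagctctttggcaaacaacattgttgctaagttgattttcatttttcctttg
Ctsf (chr19:4854915-4855164, plus strand): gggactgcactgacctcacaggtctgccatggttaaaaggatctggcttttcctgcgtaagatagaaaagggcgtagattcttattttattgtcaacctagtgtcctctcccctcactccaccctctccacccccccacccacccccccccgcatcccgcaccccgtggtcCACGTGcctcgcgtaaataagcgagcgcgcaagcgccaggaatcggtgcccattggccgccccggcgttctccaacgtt
Lamp1 held 4 cores, the nearest 15 bases before the start and the farthest 61, counted from the first base of each E-box. Atg7 held 1 core, 132 bases before a start that lies well inside the deposited locus, which begins at 114643097. The Lamp1 and Ctsf windows ended shortly after their deposited loci begin, at 13159135 and 4855129. A match is a description of the letters, and binding was not measured.

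The wider machinery was described with 117 measured genes of the same pathway, grouped by role, the 10 genes included. By the authors' FDR 3 of them fell and 0 rose, leaving 114 that did not pass, and the 2.56% that fell stands beside the 1.7% of all genes. At an FDR under 0.1, 5 of 117 were called, all lower in KO, beside 2.22% of all genes lower in KO and 3.65% in either direction. With the deposited scaling their log2 ratios had a median of -0.13, with 83 of 117 below 0, against 49.1% of all listed genes. With totals without the 20 most abundant genes, 61 of 117 lay below 0. That scaling moved the median of the genes with a mean of at least 10 to 0.11, and 83 of 117 lay below that median. KO was wholly under WT in 63 genes (53.8%) and wholly over it in 13, beside the 26.2% and 25.6% of all genes. Of the 108 genes with a mean of at least 500, 56 (51.9%) had KO wholly under WT, beside the 35.4% of all genes at that level. Limma called 0 of the 117, against 0.889% of all genes tested, and 27 (23.1%) had an unadjusted p under 0.05, near the 19.6% of all genes tested.

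The genes that fell were Map1lc3a, Trp53inp2 and Ctsf. Trp53inp2, which shuttles from the nucleus to autophagosomes and binds ATG8 proteins, had 11274 and 12058 normalized counts in the KO libraries, against 17827 and 17130 in the WT libraries (chromosome 2, 155381856 to 155389847). It fell by 0.58 on the log2 scale, with an FDR of 0.00279 in the authors' deposited table, and limma gave an adjusted p of 0.0909. Ctsf, a lysosomal cysteine protease of the cathepsin family, had 924 and 763 in KO, against 1420 and 1267 in WT (chromosome 19, 4855129 to 4860912). It fell by 0.67 on the log2 scale with an FDR of 0.00377 in the authors' deposited table, and limma's adjusted p was 0.0595. In each of the 3 the genotypes did not overlap, which their choice by FDR from the same libraries favours. KO was wholly under WT in 26.2% of all genes with a mean of at least 10.

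By role, the median log2 ratio was -0.19 for 5 genes of the ULK complex, -0.08 for 8 of the lipid kinase complex, -0.15 for 10 of phosphoinositide binding and lipid supply and -0.12 for 10 of the conjugation machinery. It was -0.15 for the 5 ATG8 genes, -0.21 for 11 cargo receptors, -0.17 for 13 genes of fusion with the lysosome and -0.15 for 24 of transcription and signalling control. For 31 genes of the lysosomal membrane and hydrolases it was 0.02, with 13 below 0 and 18 above. Lamp2, Gla, Atp6ap1 and Atp6ap2 of this group lie on chromosome X, with log2 ratios of 0.15, 0.11, 0.02 and 0.07. In other roles Wdr45 (-0.33), Fundc1 (0.13) and Tfe3 (0.16) lie there too, and sex cannot be told apart from genotype. With totals without the 20 most abundant genes, which moved the median of all genes to 0.11, the median of the lipid kinase complex turned to 0.03. Outside the lysosomal genes, 70 of 86 lay below 0. Under 3 other scalings of the libraries, which shift nearly all ratios alike, these counts below 0 went down to as few as 53 of 86 and 8 of 31. The difference between the lysosomal and the other genes was not tested.

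**Figure D4:**
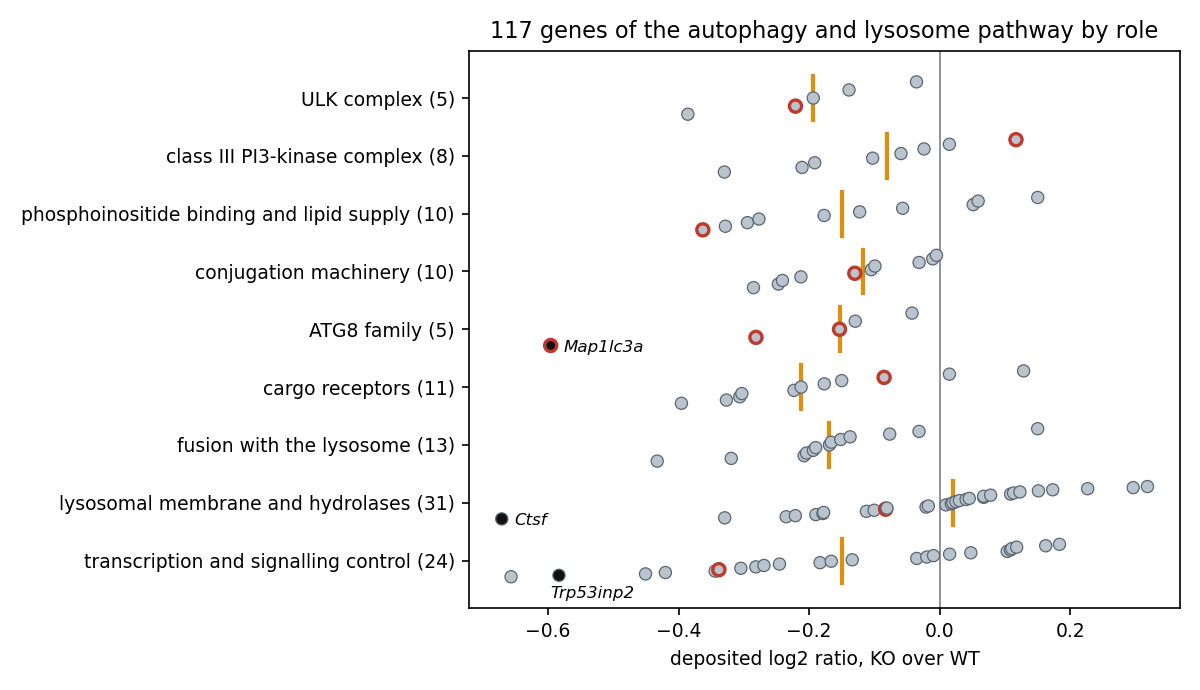
Deposited log2 ratio of KO over WT (horizontal axis) for 117 genes in 9 roles, each point 1 gene, black where the authors' FDR was under 0.05, ringed in red for the 10 main genes, with the median of each role as an orange line. With the deposited scaling the orange lines lie left of 0 in 8 roles and at 0.02 for the lysosomal membrane and hydrolases. For the lipid kinase complex the median turned to 0.03 with totals without the 20 most abundant genes, which moved the all-gene median to 0.11.

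In the roles with no called gene, the gene with the lowest FDR is given for each. Atg13, the regulatory partner of ULK1, had 809 and 847 normalized counts in KO, against 1054 and 1109 in WT (FDR 0.272 in the authors' deposited table). Pik3c3, the catalytic lipid kinase that Becn1 binds, had 514 and 438 in KO, against 651 and 546 in WT (FDR 0.532 in the authors' deposited table). Atg4d, a protease that trims and releases ATG8 proteins, had 902 and 1060 in KO, against 1186 and 1205 in WT (FDR 0.521 in the authors' deposited table). In these 3 genes KO was wholly under WT, and none passed. A choice by FDR from the same libraries favours such a gap, which 26.2% of all genes with a mean of at least 10 showed.

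Bnip3, a receptor on mitochondria that binds ATG8 proteins, had 4094 and 3901 normalized counts in KO, against 5379 and 5139 in WT (FDR 0.137 in the authors' deposited table). Epg5, a tether that helps autophagosomes fuse with lysosomes, had 904 and 820 in KO, against 1195 and 1133 in WT (FDR 0.174 in the authors' deposited table). Wipi1, given above, had the lowest FDR in its role. The KO libraries of both Bnip3 and Epg5 lay below the WT libraries, again without passing and again favoured by the choice by FDR.

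The most abundant cathepsins of the list, lysosomal proteases, are given as values. Ctsd had 17234 and 16585 normalized counts in KO and 20098 and 19706 in WT, Ctsb 14352 and 12738 in KO and 14668 and 13980 in WT, and Ctsl 5640 and 5286 in KO and 4673 and 4663 in WT. None of these 3, chosen after their values were seen, passed the authors' FDR. Macrophages are rich in lysosomes, and the 8 macrophage markers measured summed to 9534 and 7558 normalized counts in KO and 8459 and 5711 in WT, with none at 0 and none past the FDR. The 7 Schwann cell markers summed to 24422 and 11807 in KO and 8389 and 8858 in WT. The 7 adipocyte markers summed to 23023 and 15742 in KO and 16425 and 17662 in WT. Most of that was Fabp4, with 16581 and 14225 in KO and 14723 and 15892 in WT. The other adipocyte markers were highest in KO library 1, such as Adipoq with 1089 and 306 in KO and 265 and 284 in WT. The 6 markers of fibro-adipogenic progenitors summed to 267456 and 212843 in KO and 160183 and 136054 in WT, mostly Col1a1 and Col3a1. Of the 6, 4 lay wholly over WT and Pdgfra overlapped. Ly6a lay wholly under it, with 2663 and 2455 in KO and 2851 and 2724 in WT. The 6 endothelial markers summed to 29379 and 27780 in KO and 34305 and 32855 in WT. Of these, 0 markers were at 0 in any library, Col3a1 and Kdr passed the authors' FDR, and the part of these cells in the autophagy values was not tested.

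The promoter match was set beside the ratios of the wider genes, 94 of which had a RefSeq promoter entry. The core stood in 19 of them (20.2%), against 3.58% of all genes with an entry. The plain E-box stood in 23 (24.5%), Ctsf among them, against 6.86% of all genes with an entry. Among the 19 with the core the median log2 ratio was -0.02, with 10 below 0, and among the 75 without the core it was -0.17, with 58 below 0. Genes with the core included Lamp1, Ctsd and Gla of the lysosomal membrane and hydrolases, a role with a median of 0.02. This split therefore shares genes with the split by role and is not a separate one. The difference between genes with and without the core was not tested.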

How the data were processed

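Per the labels' protocols, Trizol RNA of frozen muscle went into standard Illumina libraries. The submitters' processing notes name mm10; no source used here gives the aligner, counting program, strand setting or gene models. For 14617 genes the authors deposited a mean signal (normalized count) per genotype with its log2 ratio, p-value and FDR, by DESeq per the table's name. The deposited log2 ratio and FDR were checked against the means and p-values and differed by at most 1.31e-14 and 0.000136. 1 line of the gene table and both pathway tables were not analysed here.

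Each mean was solved for whole counts of its libraries (tolerance 1e-13 of the value). With 2 steps 100% of the 300 lowest values of each column were solved, with 1 step 7.69% in KO and 8.75% in WT, and all 14617 genes had exactly 1 solution per column. Recovered size factors were 1.10132 and 0.969712 in KO and 1.00269 and 0.940389 in WT. On simulated means 100% of 14617 genes were recovered.

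Calls are the authors' FDR under 0.05. The limma fit (3.58.1, R 4.3.3) took log2(normalized count + 1), kept a mean of 10 or more, used moderation that was robust and followed the trend of variance with mean, KO minus WT, two-sided, Benjamini-Hochberg over 14053 genes. The pseudocount understates changes of low genes. It has 2 residual degrees of freedom, and p-values measure only the spread between these libraries. Y-linked transcripts were found in 1 KO library and not the other, which libraries of 1 mouse would share; nothing used here shows that the WT libraries came from separate mice, and their spread may be technical. On counts simulated for this comparison over 14053 genes limma found 96% of 2-fold and 100% of 4-fold changes, and 8.84% of what it called had not been changed. The simulated spread was set in advance and not estimated from these libraries, and the 200 changed genes had a mean of at least 50. Changes under 2-fold, such as those of the 10 genes, were not simulated. By rule the genes named from the wider list are those past the FDR, or the lowest FDR in a role with none. Gabarap, Gabarapl2, Ctsd, Ctsb, Ctsl, Prkaa2, Foxo3, Mtor and Tfe3 were named outside that rule, after their values were seen. So were Lamp2, Gla, Atp6ap1, Atp6ap2, Wdr45 and Fundc1, named for their chromosome. The members and lists were chosen with earlier results of these data known. Rubcn and Retreg1 were found under older symbols (1700021K19Rik, Fam134b).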

Additional observations from a re-analysis of the deposited data

How the results depend on the processing

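The count of 1 gene past the authors' FDR was the same with the adjustment recomputed and without the X and Y chromosomes. Limma called 0 of the 10 genes under 10 other settings of scaling, pseudocount, filter and moderation. Over all genes the main fit called 125 of 14053, against 27 when moderation was not robust and 1 without the trend. The other settings called from 92 to 206 genes. Where so few genes were called, 0 of the 10 says little. With 1 library left out, a lone library was assumed to vary like the others, and only the log2 difference is given. Over 14 alternatives the log2 difference of Map1lc3a ranged from -0.77 to -0.44. Under the 10 that kept all libraries its adjusted p in limma ranged from 0.0872 to 0.232. Of 140 values for the 10 genes, 4 turned in direction. Those that turned were Sqstm1, at 0.0223 with totals without the 20 most abundant genes and, with 1 library left out, from -0.1923 (without KO library 1) to 0.0167 (without KO library 2), and Lamp1, at 0.0553 with quantile normalization and 0.0272 with totals without the 20 most abundant genes; the cause was not tested. That last scaling moved the median of all genes to 0.11. Of the 117 genes, 5 passed at a threshold of 0.1 (Foxo3 and Prkaa2 as well) and 0 passed in limma. With the deposited scaling 8 of the 10 genes had no overlap between genotypes, 7 with KO under WT and 1 with KO over it. Of all genes with a mean of at least 10, 26.2% lay wholly under and 25.6% wholly over. The 8 became 6 with total counts or the upper quartile and 5 with totals without the top 20, and no share of all genes was computed for these scalings. Against the WT mean, 9 of the 10 had the same direction in each KO library, a count chosen after seeing the data. Both KO libraries were set against the same WT mean, which favours agreement, and no share of all genes was computed. The median of the 117 genes ranged from -0.1322 to -0.0857 with 1 library left out, the last without KO library 2, also chosen after seeing the data. No paired analysis was possible because the recovered libraries carry no mouse number. Each library held at least 22629288 counts, and 2 libraries per genotype limit the tests.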

Other observations

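Of the 3 genes of the 117 past the authors' FDR, Map1lc3a and Trp53inp2 lie 103.8 kb apart on chromosome 2 and had similar log2 ratios of -0.60 and -0.58 in the authors' deposited table. This was noticed after the values were seen. Within 250 kb on either side of the pair, 12 genes were listed, of which these 2 passed the FDR. The other 10 had log2 ratios from -0.57 to 0.70. Pigu, which lies between them and belongs to the machinery of glycosylphosphatidylinositol anchors, had 660 and 766 normalized counts in KO and 789 and 836 in WT (log2 ratio -0.19, FDR 0.824 in the authors' deposited table). Acss2, an acetyl-CoA synthetase, had 907 and 753 in KO and 1349 and 1121 in WT (log2 ratio -0.57, FDR 0.094 in the authors' deposited table). Dynlrb1, a dynein light chain on the other side of Map1lc3a, had 1471 and 1874 in KO and 1399 and 1438 in WT, both over the WT values (FDR 0.8 in the authors' deposited table).

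Of the 24 genes of transcription and signalling control, 16 log2 ratios lay below 0 and 8 above (13 below 0 with totals without the 20 most abundant genes). KO was wholly under WT in 12 (50%) and wholly over it in 4 (16.7%), beside 26.2% and 25.6% of all genes with a mean of at least 10. Of the 22 with a mean of at least 500, KO was wholly under WT in 10 (45.5%), beside 35.4% of all genes at that level. The regulators described here were chosen after their values were seen, the first 3 from the lower end. Prkaa2, the catalytic subunit of AMP-activated kinase most used in muscle, had 6725 and 5850 normalized counts in KO and 8613 and 8214 in WT (log2 ratio -0.42, FDR 0.0907 in the authors' deposited table). Foxo3, a transcription factor that switches on autophagy genes in fasting muscle, had 235 and 194 in KO and 368 and 308 in WT (log2 ratio -0.66, FDR 0.0869 in the authors' deposited table). Mtor, the kinase that restrains ULK1 and TFEB, had 1081 and 886 in KO and 1427 and 1260 in WT (log2 ratio -0.45, FDR 0.133 in the authors' deposited table). Tfe3, a relative of TFEB that binds the same sequence, had 654 and 613 in KO and 579 and 552 in WT (log2 ratio 0.16, FDR 0.884 in the authors' deposited table). Tfe3 lies on chromosome X, and sex and genotype cannot be told apart here. The FoxO motif TGTTTAC was found on neither strand in the 250 bases before the start of the 94 genes of the list with an entry, and in 3.54% of all genes with one. The genotypes did not overlap in any of these 4 regulators, and none passed the FDR of 0.05.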
